A study of Homo sapiens with 4 samples.

Results

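The genes described here encode the receptors, G proteins and enzymes that the study placed above the small GTPase RhoA, namely the purinergic receptors P2RY11, P2RY1, P2RY2 and P2RY6, the G protein alpha subunits GNAQ and GNA11, and the phospholipase C beta enzymes PLCB1, PLCB2, PLCB3 and PLCB4. They were chosen by name, through their Ensembl identifiers, and are 10 of the 50653 genes in the deposited table. RNA was sequenced from 4 libraries, 1 for each combination of cell line and short hairpin RNA (shRNA). The cell lines were BT-20 and MDA-MB-468, both established human triple-negative breast cancer lines. Each line carried a lentiviral vector with either a control shRNA or an shRNA against QPRT, and all cells had been selected with puromycin. The QPRT shRNA was in pLKO.1-puro, and the backbone of the control vector is not named. QPRT is the enzyme that forms the NAD precursor nicotinic acid mononucleotide from quinolinate. The lines were also grown in different media, BT-20 in Eagle's Minimum Essential Medium and MDA-MB-468 in Leibovitz's L-15, both with fetal bovine serum, so line and medium cannot be told apart. With 1 library per line and shRNA there were no replicates.

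P2Y receptors are membrane proteins that respond to nucleotides outside the cell, chiefly ATP, ADP, UTP and UDP. P2RY11 responds to ATP and couples to both Gq and Gs, P2RY1 to ADP, P2RY2 to ATP and UTP, and P2RY6 to UDP. An active receptor loads Gq or G11 with GTP, and the GTP-bound alpha subunit binds phospholipase C beta, which splits the membrane lipid PIP2 into diacylglycerol and IP3. IP3 opens calcium channels of the endoplasmic reticulum, diacylglycerol recruits protein kinase C, and Gq also binds guanine nucleotide exchange factors that activate RhoA.

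Levels are in FPKM, the fragments on a gene divided by transcript length and by the library total, so that genes can be compared with each other. The fragment numbers behind the FPKM could be recovered from the transcript lengths (library totals of 10321996 to 10945948), and 95% intervals given below cover counting error only. QPRT itself was at 249 FPKM with control shRNA and 40.5 after knockdown in BT-20, against 117 and 18.3 in MDA-MB-468, so the targeted gene was lower in both libraries labelled QPRT shRNA. All 7 epithelial markers examined, among them EPCAM, KRT8 and EGFR, were above 1 FPKM in all 4 libraries, PGR was listed at 0 and ESR1 was at 1.05 to 5.76. The receptor tyrosine kinase gene ERBB2 was at 129 and 122 FPKM in BT-20, against 58.1 and 50.7 in MDA-MB-468. The defining blood cell genes PTPRC, CD3D, CD3E and MS4A1 were below 0.5 FPKM, with 2 of 11 blood cell markers above 1 in BT-20 cells and 4 of 11 in MDA-MB-468 (highest CD14, at 26.1). A list of 7 gut and plasma cell markers summed to 68.2 FPKM with control shRNA and 23.6 after knockdown in BT-20, against 152 and 24.0 in MDA-MB-468. These markers were lower with QPRT shRNA in both lines, and their part in the shRNA comparisons below was not tested.

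P2RY11 (ENSG00000244165) lies on the plus strand of chromosome 19 at 10111538 to 10115372 (GRCh38, GENCODE 29), and its exons are shared with other genes. The readthrough gene PPAN-P2RY11 splices the upstream gene PPAN, which encodes a nucleolar protein of ribosome assembly, onto the main exon of P2RY11. The 2 transcripts are shown across that splice because the row for P2RY11 depends on how reads there were assigned. Both are written from 19 coding bases before the junction to 41 after it. The bases before it are in lower case, at chr19:10111722-10111740 in P2RY11 and chr19:10111004-10111022 in the readthrough, and the capitals are the same exon in both, from chr19:10113633-10113673, plus strand.
P2RY11-201: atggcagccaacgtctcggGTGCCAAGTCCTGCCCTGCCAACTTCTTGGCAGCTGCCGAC
PPAN-P2RY11-201: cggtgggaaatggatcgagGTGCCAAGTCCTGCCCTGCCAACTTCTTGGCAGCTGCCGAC
Of the 1122 coding bases of P2RY11-201, 1103 (98.3%) are also coding bases of the readthrough, which leaves the 19 lower-case bases that start with the ATG. Over all annotated exons, P2RY11 has 2295 bases, of which 1148 are shared with PPAN-P2RY11, 97 with PPAN on the same strand and 113 with EIF3G on the opposite strand, so that 937 (40.8%) belong to P2RY11 alone. In the deposited table PPAN-P2RY11 was listed at 0 in all 4 libraries, and PPAN was at 2.78 and 3.38 FPKM in BT-20, against 14.2 and 18.99 in MDA-MB-468. A read from the shared exon cannot be assigned to P2RY11 or the readthrough by its position alone. The other 9 genes share no exon bases with another gene on the same strand, but GNA11 (924 of 6242 exon bases) and PLCB2 (357 of 7350) overlap antisense genes that were listed at 0.

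The other receptor genes are P2RY1 (ENSG00000169860, chr3:152834693-152841439, plus strand), P2RY2 (ENSG00000175591, chr11:73218298-73236352, plus strand) and P2RY6 (ENSG00000171631, chr11:73264505-73298617, plus strand), so that P2RY2 and P2RY6 lie near each other. GNAQ (ENSG00000156052) lies at chr9:77716087-78031458 on the minus strand and GNA11 (ENSG00000088256) at chr19:3094410-3124004 on the plus strand. PLCB1 (ENSG00000182621, chr20:8077251-8968360) and PLCB4 (ENSG00000101333, chr20:9068763-9481242) lie near each other on the plus strand, PLCB2 (ENSG00000137841) is at chr15:40278176-40307935 on the minus strand, and PLCB3 (ENSG00000149782) is at chr11:64251523-64269150 on the plus strand.

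**Figure D1:**
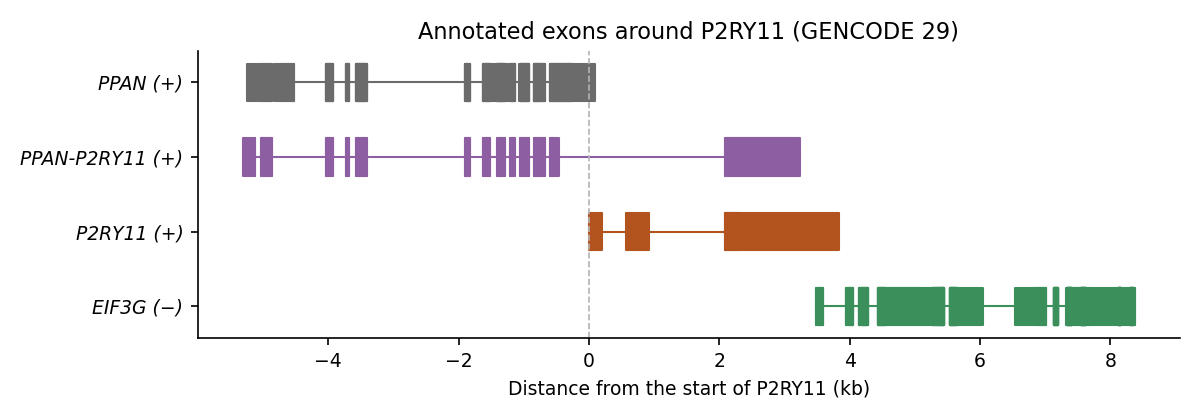
Annotated exons (boxes, all transcripts merged) of PPAN, the readthrough PPAN-P2RY11, P2RY11 and EIF3G, by distance in kb from the start of P2RY11, with the strand of each gene in brackets. The last exon of PPAN-P2RY11 lies inside the last exon of P2RY11, over 1148 of the 2295 exon bases of P2RY11.

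GNAQ and GNA11 are the other pair for which likeness matters, since both alpha subunits couple the same receptors to phospholipase C beta and their coding sequences are of equal length (1077 bases without the stop codon). Aligned without gaps, GNAQ-201 and GNA11-201 carried the same base at 846 positions (78.6%). The windows of 90 coding bases where they are most alike (coding bases 922 to 1011) and least alike (322 to 411) are shown, with bases that differ between the genes in capitals. The first window lies at chr9:77721392-77721481 on the minus strand in GNAQ and chr19:3121021-3121110 on the plus strand in GNA11 (GRCh38), and 10 of its 90 bases differ.
GNAQ-201: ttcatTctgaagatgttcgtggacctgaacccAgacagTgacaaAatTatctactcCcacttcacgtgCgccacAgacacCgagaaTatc
GNA11-201: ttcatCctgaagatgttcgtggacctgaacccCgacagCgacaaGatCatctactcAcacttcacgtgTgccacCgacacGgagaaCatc
The second window lies at chr9:77815681-77815770 and chr19:3113330-3113419 on the same strands, and 33 of its 90 bases differ.
GNAQ-201: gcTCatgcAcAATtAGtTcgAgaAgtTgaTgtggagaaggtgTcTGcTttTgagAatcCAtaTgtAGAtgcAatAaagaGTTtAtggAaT
GNA11-201: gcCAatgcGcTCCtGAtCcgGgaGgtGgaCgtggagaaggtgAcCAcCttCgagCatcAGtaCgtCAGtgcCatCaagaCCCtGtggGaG
The longest stretch without a difference was 26 bases in the coding sequences, and over all 45 pairs of the 10 genes no identical stretch between transcripts was longer than 33 bases.

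Among the receptors, P2RY6 was the most abundant in 3 of 4 libraries. It was at 48.5 FPKM with control shRNA and 39.9 after knockdown in BT-20, against 18.2 and 16.9 in MDA-MB-468. P2RY11 was at 3.39 and 3.67 FPKM in BT-20, against 16.0 and 22.3 in MDA-MB-468. P2RY2 was at 11.3 and 11.4 FPKM in BT-20, against 10.3 and 7.83 in MDA-MB-468. The BT-20 libraries were thus high for P2RY6 and the MDA-MB-468 libraries for P2RY11. Differences between the lines were common, with 55.1% of all genes tested called (limma adjusted p under 0.05). In bulk RNA, more cells that express a gene and more RNA per cell cannot be told apart. P2RY1 had no fragment in either BT-20 library, which allows up to 0.0419 and 0.0408 FPKM (3 fragments), and 2 and 1 fragments in MDA-MB-468.

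Of the summed FPKM of the 4 receptors, P2RY6 made up 76.7% and 72.6% in the control and QPRT shRNA libraries of BT-20, and 40.9% and 36.0% in those of MDA-MB-468. P2RY11 made up 5.37% and 6.68% in BT-20 cells, and 36.0% and 47.3% in MDA-MB-468. The receptor sum was 63.2 and 54.9 FPKM in BT-20, against 44.5 and 47.0 in MDA-MB-468. In the control library of MDA-MB-468, P2RY6 and P2RY11 could not be told apart by level (a ratio of 1.14, interval 0.955 to 1.36). With QPRT shRNA P2RY11 was the higher of the pair as deposited (ratio of P2RY6 to P2RY11 0.760, interval 0.642 to 0.901). Only 45.8% of the exon bases of P2RY11 are free of other genes on the same strand, against 100% for P2RY6. What this does to these shares and ratios was not tested, and the intervals do not cover it. The other 6 P2Y receptors listed (P2RY4, P2RY8, P2RY10, P2RY12, P2RY13 and P2RY14) had at most 2 fragments in any library.

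GNA11 had the highest level of the 10 genes in all 4 libraries. It was at 79.3 FPKM with control shRNA and 81.8 after knockdown in BT-20, against 57.2 and 69.6 in MDA-MB-468. GNAQ was at 45.4 and 43.6 FPKM in BT-20, against 22.7 and 14.8 in MDA-MB-468. Both subunits were lower in the MDA-MB-468 libraries, although GNA11 did not pass the test of the lines given below (limma adjusted p = 0.140). The ratio of GNAQ to GNA11 was 0.572 (interval 0.530 to 0.617) and 0.533 (0.495 to 0.575) in BT-20, where the intervals overlap. In MDA-MB-468 it was 0.397 (0.361 to 0.437) with control shRNA and 0.212 (0.190 to 0.236) with QPRT shRNA, where they do not. The sum of both subunits differed less between the shRNAs, with 124.7 and 125.4 FPKM in BT-20 compared with 79.96 and 84.4 in MDA-MB-468. The ratios take no account of base composition, which differs between these genes and moved with the shRNA comparison, as described below. After removal of the trend on transcript GC content and length, GNAQ changed by -0.35 (BT-20) or -0.45 (MDA-MB-468) on the log2 scale. GNA11 then changed by 0.13 or 0.14, so the changes were of similar size in the lines. The ratio itself was not recomputed after this removal.

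Of the phospholipase C beta enzymes, PLCB3 made up 96.7% to 97.1% of the family's FPKM in BT-20, compared with 81.6% to 81.7% in MDA-MB-468. It was at 39.6 FPKM with control shRNA and 50.2 after knockdown in BT-20, against 27.4 and 24.1 in MDA-MB-468. PLCB4 was at 1.01 and 1.24 FPKM in BT-20, against 5.17 and 4.35 in MDA-MB-468. PLCB3 was therefore lower and PLCB4 higher in the MDA-MB-468 libraries than in the BT-20 libraries. PLCB2, known mainly from blood cells, had 3, 9, 17 and 20 fragments, or 0.161 and 0.471 FPKM in BT-20, against 0.887 and 1.11 in MDA-MB-468. PLCB1 was listed at 0 in 3 libraries and at 0.0654 FPKM in the control library of MDA-MB-468, a value that did not come out as whole fragments.

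**Figure D2:**
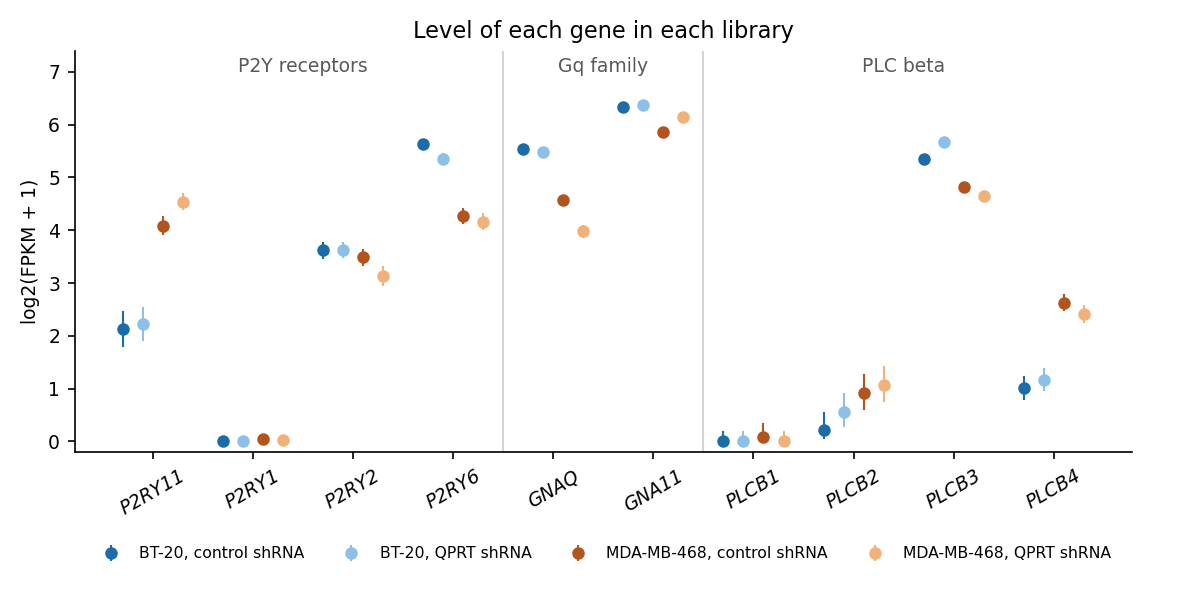
Level of each of the 10 genes, as log2(FPKM + 1), in the 4 libraries (1 point per library). Bars are exact 95% Poisson intervals of the fragment number and cover counting error only. Of the 7 genes tested, P2RY11 and PLCB4 were called higher in MDA-MB-468 and P2RY6, GNAQ and PLCB3 lower (limma adjusted p under 0.05). Over all genes tested 55.1% were called.

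The order of the levels in BT-20 with control shRNA was GNA11, P2RY6, GNAQ, PLCB3, P2RY2, P2RY11, PLCB4 and PLCB2, with P2RY1 and PLCB1 at 0. The only neighbours there among the detected genes whose counting intervals overlapped were P2RY6 and GNAQ, at 48.5 and 45.4 FPKM. The order in the control library of MDA-MB-468 was GNA11, PLCB3, GNAQ, P2RY6, P2RY11, P2RY2, PLCB4, PLCB2, PLCB1 and P2RY1. P2RY11 moved from the sixth place in both BT-20 libraries to the fifth and, with QPRT shRNA, the third, where its interval overlapped that of PLCB3. These places take its row as deposited, and how reads of its shared exons were assigned is not known.

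The first comparison asks how the lines differ. The 14321 genes whose FPKM averaged 1 or more across the libraries were tested with limma on log2(FPKM + 1), with line and shRNA as terms and Benjamini-Hochberg adjustment. This filter kept 7 of the 10 genes and left out P2RY1, PLCB1 and PLCB2. Of the 7, 5 differed between the lines at an adjusted p under 0.05, beside 55.1% of all genes tested, so the count of these genes does not stand out from that of all genes. P2RY11 was higher in MDA-MB-468 by 2.14 on the log2 scale (SE 0.26, limma adjusted p = 1.6e-15), which is 4.39-fold on the FPKM + 1 scale. PLCB4 was higher by 1.44 (SE 0.29, limma adjusted p = 3.53e-06). P2RY6, at -1.28 (SE 0.22, limma adjusted p = 6.13e-08), and GNAQ, at -1.23 (SE 0.22, limma adjusted p = 1.61e-07), were lower in MDA-MB-468. PLCB3 was lower with a difference of -0.77 (SE 0.22, limma adjusted p = 0.00112). Thus 1 gene with each direction was found among the receptors and among the phospholipases.

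P2RY2 differed by -0.31 (SE 0.25, limma adjusted p = 0.303) and GNA11 by -0.35 (SE 0.20, limma adjusted p = 0.140), and neither passed the test. After scaling to the upper quartile of each library, which lowers the median line difference of all genes from 0.099 to -0.0041, GNA11 passed it (-0.46, limma adjusted p = 0.0476). The fit has 1 residual degree of freedom per gene, and its spread is the disagreement of the 2 lines on the shRNA effect, shared over genes. Without the filter on low values no gene of the 50626 was called by limma (7482 were at an unadjusted p under 0.05), and the 5 genes above had limma adjusted p values of 0.163 to 0.364. In fits of the line alone that left out 1 library, GNAQ lost its call without BT-20 control shRNA (-1.21, limma adjusted p = 0.0725) and without BT-20 QPRT shRNA (-1.26, limma adjusted p = 0.0653). PLCB3 kept its call only without BT-20 control shRNA and had limma adjusted p values of 0.0576 to 0.0899 without each of the others.

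Taken for the control shRNA libraries alone, the line difference was 1.95 for P2RY11, -1.36 for P2RY6, -0.97 for GNAQ, -0.52 for PLCB3 and 1.62 for PLCB4. For the QPRT shRNA libraries alone it was 2.32, -1.19, -1.5, -1.03 and 1.26 in the same order. Each of the 5 kept its direction in both pairs of libraries. The difference of GNAQ and that of PLCB3 were larger in the QPRT shRNA pair by 0.53 and 0.51, respectively.

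The second comparison asks whether QPRT shRNA changed these genes. No gene of the 7 changed at least 2-fold on the log2(FPKM + 1) scale in BT-20 (beside 1.7% of all genes tested) or in MDA-MB-468 (beside 1.89%). Over both lines, limma called 0 of the 7 (beside 0.628% of all genes), all 7 had an adjusted p of 1.00, and none was at an unadjusted p under 0.05. limma-voom on the recovered fragments also called 0 of them. The changes within each line are given as log2 ratios of depth-scaled fragments with exact Clopper-Pearson 95% intervals, which hold no spread between cultures.

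P2RY11, at 45 and 50 fragments in BT-20, gave a ratio of 0.11 (interval -0.50 to 0.73), and at 219 and 287 fragments in MDA-MB-468 one of 0.47 (0.22 to 0.74). The BT-20 interval is wide enough to hold the MDA-MB-468 value. P2RY2 was at 0.0073 (-0.24 to 0.25) in BT-20 cells and -0.39 (-0.67 to -0.11) in MDA-MB-468. P2RY6 was at -0.28 (-0.43 to -0.13) in BT-20 cells and -0.11 (-0.35 to 0.13) in MDA-MB-468. No receptor had an interval apart from 0 in both lines.

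GNAQ was at -0.057 (-0.16 to 0.041) in BT-20 cells and -0.62 (-0.78 to -0.47) in MDA-MB-468, where its fragments numbered 882 with control and 540 with QPRT shRNA. This was the largest change among the 7 genes in either line, and the only one past 1.5-fold, a threshold passed by 8.98% of all tested genes in BT-20 cells, against 9.17% in MDA-MB-468. GNA11 was at 0.044 (-0.075 to 0.16) in BT-20 cells and 0.28 (0.15 to 0.42) in MDA-MB-468, opposite in sign to GNAQ in both lines, although GNA11 in BT-20 turned to -0.062 on the log2(FPKM + 1) scale with upper quartile scaling. PLCB3 was at 0.34 (0.24 to 0.44) in BT-20 cells and -0.18 (-0.32 to -0.046) in MDA-MB-468, and was the only one of the 7 whose intervals lay on opposite sides of 0. PLCB4 was at 0.30 (-0.31 to 0.92) and -0.25 (-0.54 to 0.042). PLCB2, with 3 and 9 fragments in BT-20, had a ratio of 1.55 and an interval of -0.46 to 4.07, so that no change was detectable at this depth.

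**Figure D3:**
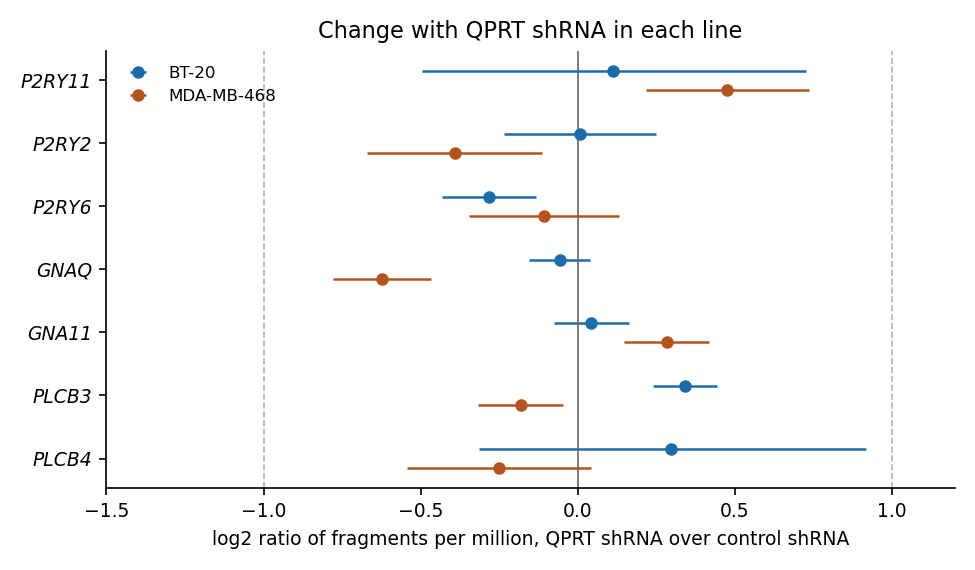
Log2 ratio of fragments scaled to library depth, QPRT shRNA over control shRNA, for the 7 tested genes, in BT-20 and MDA-MB-468 (1 library per line and shRNA). Bars are exact Clopper-Pearson 95% counting intervals and dashed lines mark 2-fold. All 14 points lie within 2-fold, GNAQ in MDA-MB-468 is the lowest at -0.62, and PLCB3 lies at 0.34 in BT-20 cells and -0.18 in MDA-MB-468.

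The lines were compared in these changes by the ratio of the 2 fragment ratios, MDA-MB-468 over BT-20, for which 1 library per group allows no test. The interval from counting error did not include 0 for 4 of the 7 genes, GNAQ (-0.57, interval -0.75 to -0.38), PLCB3 (-0.52, -0.69 to -0.35), P2RY2 (-0.40, -0.77 to -0.026) and GNA11 (0.24, 0.058 to 0.42). The same held for 43.4% of the 12090 tested genes with whole fragments in all 4 libraries, so little can be read from the count. P2RY11 (0.36, -0.31 to 1.03), P2RY6 (0.18, -0.11 to 0.46) and PLCB4 (-0.55, -1.24 to 0.14) had intervals that include it. With upper quartile scaling the interval of P2RY2 also did (-0.69 to 0.050).

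Base composition moved with the shRNA comparison, in opposite directions in the lines. Across 14232 genes tested, Spearman's correlation of the fold change with the GC content of the transcripts was -0.28 in BT-20 cells and 0.29 in MDA-MB-468, as a description over genes that share libraries. The transcripts of GNAQ (39.3% GC) and PLCB4 (40.0%) lie below the median gene (49.5%), and those of P2RY11 (64.4%), GNA11 (61.7%), PLCB3 (61.6%), P2RY2 (60.2%) and P2RY6 (59.7%) above it. With the trend on transcript GC content and length removed in each line, GNAQ was at -0.35 in BT-20 cells and -0.45 in MDA-MB-468 on the log2 scale, P2RY11 at 0.21 and 0.28, and GNA11 at 0.13 and 0.14. The values of each of these genes in the lines were then within 0.1 of each other. PLCB3 stayed apart at 0.30 and -0.28, and P2RY2 at -0.0010 and -0.46. The counting intervals of the difference, moved by the same amounts, then included 0 for all of the 7 genes except P2RY2 (-0.87 to -0.12) and PLCB3 (-0.77 to -0.43). Over the 12090 genes, 36.5% of the intervals then left out 0. The line differences of P2RY11 (2.32), P2RY6 (-1.22), GNAQ (-1.47), PLCB3 (-0.67) and PLCB4 (1.2) kept their directions.

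**Figure D4:**
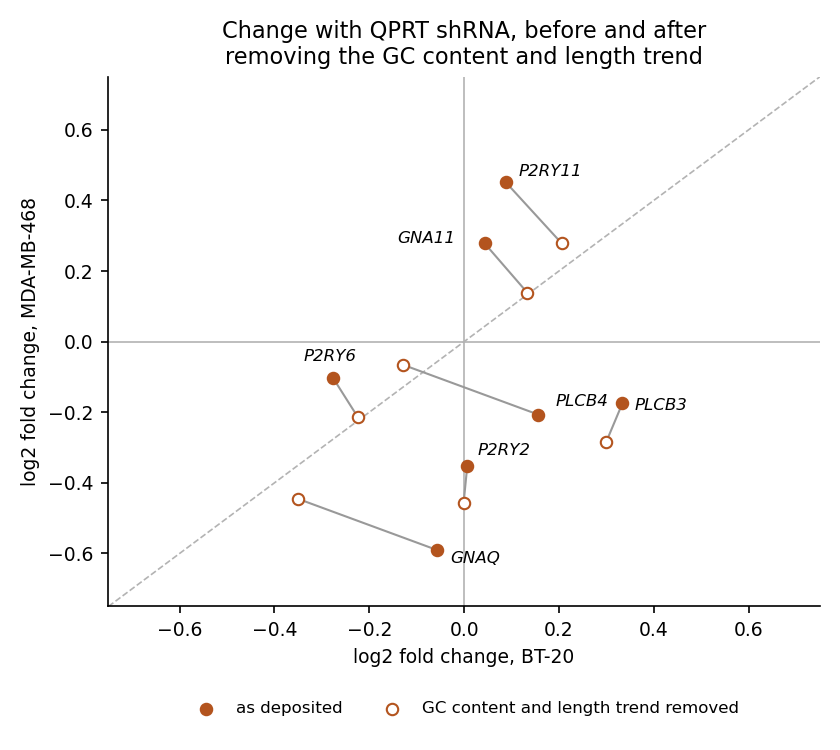
Log2 fold change with QPRT shRNA in BT-20 (x axis) and MDA-MB-468 (y axis) of the 7 genes, as deposited (filled, log2(FPKM + 1) scale) and with the trend on transcript GC content and length removed (open), with a grey line joining the values of a gene and a dashed line of equal change. GNAQ, P2RY11, GNA11, P2RY6 and PLCB4 move towards the line of equal change, and PLCB3 and P2RY2 move away from it.

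The rest of the route, from the release of nucleotides to protein kinase C, was described with 150 genes in 13 lists, of which 100 passed the same filter. Of these 100, 24 were higher and 34 lower in MDA-MB-468 at a limma adjusted p under 0.05 (58.0%, beside 55.1% of all genes tested), with a median difference of -0.089 beside 0.099 over all genes. With QPRT shRNA, 2 of the 100 genes changed at least 2-fold on the log2(FPKM + 1) scale in BT-20 (beside 1.7% of all genes tested). In MDA-MB-468, 1 of the 100 did (beside 1.89%), so the counts do not stand out from those of all genes. Over both lines limma called 0 of the 100 (3 at an unadjusted p under 0.05), beside 0.628% of all genes, and limma-voom also called 0 (4).

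These changes concerned 2 genes, an enzyme that makes adenosine and a receptor for it. NT5E, the ecto-enzyme CD73 that turns AMP into adenosine outside the cell, was at 6.44 FPKM with control shRNA and 17.6 after knockdown in BT-20, against 100.02 and 44.2 in MDA-MB-468. On the log2 scale it changed by 1.32 in BT-20 but by -1.16 in MDA-MB-468, so it passed 2-fold in both lines with opposite signs. ADORA1, the Gi-coupled adenosine A1 receptor, was at 14.3 and 30.4 FPKM in BT-20 (log2 fold change 1.03) and at 21.3 and 28.7 in MDA-MB-468 (0.41). On that scale, no tested gene of the P2X receptor, nucleotide release, G protein, Gq regulator, RhoGEF, phospholipase C, PIP2, calcium or protein kinase C lists changed 2-fold in either line. The added 1 shrinks changes at low levels. By FPKM alone some genes passed 2-fold, among them GRK3 in BT-20 (0.134 and 0.435) and PIP5K1B in MDA-MB-468 (3.07 and 1.32).

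Outside the cell, the lines differed in the enzymes that turn over nucleotides. ALPP, placental alkaline phosphatase, was at 65.6 and 73.8 FPKM in BT-20, against 5.29 and 8.41 in MDA-MB-468 (log2 difference -3.20, limma adjusted p = 2.51e-42). NT5E was higher in MDA-MB-468 by 2.52 (limma adjusted p = 6.45e-28), and ENTPD8, which hydrolyses nucleoside triphosphates and diphosphates, was lower at -1.93 (limma adjusted p = 5.77e-10). Of the 8 genes tested in this list, which also holds the intracellular adenosine kinase ADK, 2 were called higher and 4 lower, beside 30.7% higher and 24.4% lower over all genes tested. PANX2, a pannexin, was at 19.5 and 16.6 FPKM in BT-20, against 0.858 and 1.01 in MDA-MB-468 (-3.29, limma adjusted p = 8.24e-32), and CALHM2, a calcium homeostasis modulator, was higher in MDA-MB-468 by 1.35 (limma adjusted p = 1.74e-05).

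The other nucleotide and adenosine receptors were few. The ATP-gated channel P2RX7 had no fragment in BT-20 cells and 47 and 56 fragments in MDA-MB-468, at 2.18 and 2.75 FPKM, and was called between the lines (limma adjusted p = 5.88e-08). P2RX4, another ATP-gated channel, was at 35.4 and 27.7 FPKM in BT-20, against 20.4 and 19.8 in MDA-MB-468 (-0.61, limma adjusted p = 0.0139). Of the adenosine receptors, ADORA2B, which couples to Gs, was at 8.87 and 6.5 FPKM in BT-20, against 12.5 and 18.6 in MDA-MB-468 (0.92, limma adjusted p = 0.000711).

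Among the other G protein subunits, GNA15, the third alpha subunit of the Gq class tested, had 1 fragment in each BT-20 library and 62 and 100 in MDA-MB-468, at 4.84 and 8.28 FPKM (limma adjusted p = 3.10e-19). GNA14, the remaining subunit of that class, was below the filter. GNAI2, of the Gi class, was lower in MDA-MB-468 at -1.32 (limma adjusted p = 1.67e-09) and GNAZ at -1.59 (limma adjusted p = 1.69e-07). GNB4, a beta subunit, was at 0.240 and 0.0936 FPKM in BT-20, against 13.99 and 11.5 in MDA-MB-468 (3.55, limma adjusted p = 1.66e-33). The gamma subunits GNG5 (1.5, limma adjusted p = 2.97e-13) and GNG7 (1.08, limma adjusted p = 0.000664) were also higher in MDA-MB-468.

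The list of Gq regulators holds RGS proteins, receptor kinases and arrestins, which damp signalling, and RIC8A, a chaperone of alpha subunits. Of its 12 tested genes, 4 were called higher and 5 lower in MDA-MB-468, beside 55.1% of all genes called in either direction. RGS2, which speeds GTP hydrolysis by Gq, was at 1.75 and 2.95 FPKM in BT-20, against 13.02 and 24.3 in MDA-MB-468 (2.51, limma adjusted p = 3.79e-20). RGS19, which acts mainly on Gi class subunits, was at 70.1 and 67.3 FPKM in BT-20, against 13.6 and 17.6 in MDA-MB-468 (-2.08, limma adjusted p = 5.31e-20). GRK3, a receptor kinase that binds Gq, was at 0.134 and 0.435 FPKM in BT-20, against 5.42 and 5.18 in MDA-MB-468 (2.30, limma adjusted p = 1.24e-13).

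Of the RhoGEFs, ARHGEF25, which encodes the Gq-activated exchange factor p63RhoGEF, was at 5.24 and 5.96 FPKM in BT-20, against 0.264 and 0.0700 in MDA-MB-468, where it rested on 4 and 1 fragments (-2.50, limma adjusted p = 8.05e-16). ARHGEF1, which is activated by G13, was higher in MDA-MB-468 by 0.52 (limma adjusted p = 0.0265). Of the other phospholipases C, PLCG2, an isoform activated by tyrosine kinases, was at 10.6 and 10.7 FPKM in BT-20, against 47.3 and 52.8 in MDA-MB-468 (2.13, limma adjusted p = 1.81e-19). PLCD3 was lower in MDA-MB-468 at -1.37 (limma adjusted p = 2.66e-10), and PLCD4 was higher by 1.10 (limma adjusted p = 0.000355).

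Downstream of phospholipase C, calls went in both directions, with 5 higher and 7 lower in MDA-MB-468 among 21 genes of PIP2 supply and recycling, 2 and 6 among 15 calcium genes and 1 and 3 among 6 protein kinases C and D. Over all genes, 30.7% were called higher and 24.4% lower, and no list was tested against them. PIP4K2A, a kinase of phosphatidylinositol phosphates, was lower at -1.77 (limma adjusted p = 2.25e-14), and the diacylglycerol kinases DGKQ and DGKA were lower at -1.73 and -1.57. ATP2A3, a calcium pump of the endoplasmic reticulum, was at 29.5 and 29.6 FPKM in BT-20, against 8.96 and 5.31 in MDA-MB-468 (-1.95, limma adjusted p = 9.02e-15). The plasma membrane pump ATP2B4 was lower at -1.21 (limma adjusted p = 5.42e-07), and the calcium channel subunit ORAI2 was higher by 0.95 (limma adjusted p = 0.00132). PRKCD, a protein kinase C that needs diacylglycerol but not calcium, was lower at -1.71 (limma adjusted p = 1.94e-16), and so was the calcium-dependent PRKCA at -1.67 (limma adjusted p = 1.81e-10), while PRKD3, a protein kinase D, was higher by 1.5 (limma adjusted p = 3.52e-10).

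**Figure D5:**
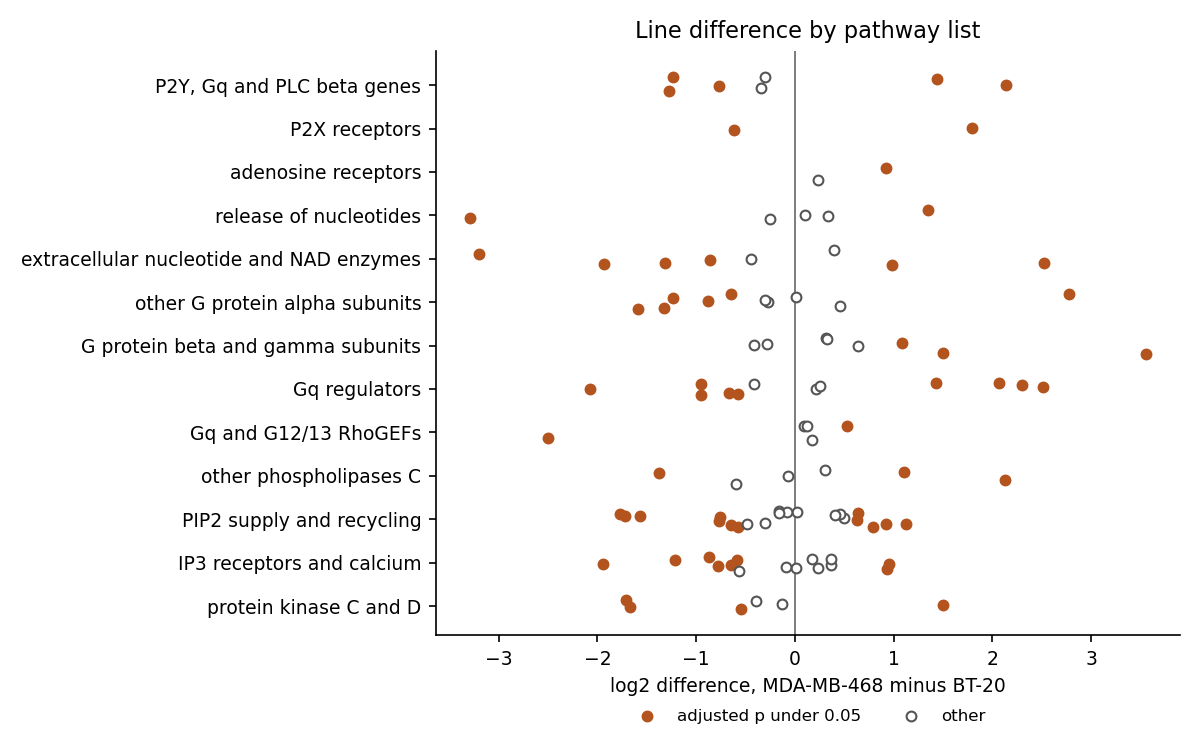
Log2 difference of MDA-MB-468 minus BT-20 for the 7 tested P2Y, Gq and phospholipase C beta genes and for the 100 tested genes of the other lists (1 point per gene, moved at random in the vertical only to separate points). Filled points have a limma adjusted p under 0.05, and they lie on both sides of 0 in the first row and in 10 of the other 12 rows.

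By the smallest root mean square difference over the 4 libraries, after each gene's own mean of log2(FPKM + 1) was taken away, the genes of the lists most like P2RY11 were GRK5 (0.098), PLCG2 (0.109) and P2RX7 (0.192), out of 106 genes. PPAN, which shares exon bases with P2RY11, had a smaller difference from it (0.052). The FPKM ratio of P2RY11 to PPAN was 1.22 and 1.09 in BT-20 cells and 1.12 and 1.17 in MDA-MB-468, with overlapping intervals. With the rows of PPAN and PPAN-P2RY11 added to that of P2RY11, the line difference was 2.26, and the log2 fold change with QPRT shRNA was 0.17 in BT-20 cells and 0.43 in MDA-MB-468.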

How the data were processed

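RNA of the lines BT-20 and MDA-MB-468, each with control or QPRT shRNA, was sequenced on an Illumina NovaSeq system as 4 TruSeq libraries. The authors deposited FPKM values per gene. The submitters' processing notes name FastQC, MultiQC, CASAVA, TopHat2 2.0.12 and HTSeq 0.6.1, while the genome build, annotation, strand setting and HTSeq mode, which bears on shared exons such as those of P2RY11, are not given in the sources used here. The study's count test, DESeq2, was not run on these FPKM values.

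Lengths, coordinates and coding sequences came from GENCODE 29 (GRCh38; 49839 of 50653 rows matched). Where a symbol had more than 1 row, only that of the highest mean entered (27 left out). FPKM times mean transcript length gave whole fragments within 0.02 for 87.3% to 87.6% of values above 0. log2(FPKM + 1) of the 14321 genes whose FPKM averaged 1 or more was modelled on line and shRNA with limma 3.58.1 under R 4.3.3 (eBayes with a trend, Benjamini-Hochberg adjustment). The step was also run on simulated data in which few genes changed and the lines did not differ in the shRNA effect. The real data differ in both, so that run does not vouch for the p values given here. Within a line a change was counted at 2-fold on the log2(FPKM + 1) scale. Intervals are exact (scipy 1.17.1), and since no molecular identifiers are named in the sources, fragments may be copies of 1 molecule.

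The alternatives were a pseudocount of 0.1, TPM, upper quartile scaling, no filter, a filter at a mean FPKM of 5, a threshold of 1.5-fold, fits without the other factor, the trend or 1 library, the line difference under each shRNA alone, the rows of PPAN and PPAN-P2RY11 summed with P2RY11, limma-voom, and removal of a lowess trend (fraction 0.3) on GC content and length, which earlier work had chosen after seeing these data. For the difference of the lines in a fold change, upper quartile scaling and trend removal were added after seeing the data. The genes and lists were chosen with earlier results of these data known. Named are the 10 genes, QPRT, genes that share their exons on the same strand, in each list the genes changed 2-fold by the shRNA and up to 3 with the largest called line difference, and the 3 genes most like P2RY11. EIF3G, GNA14, the other P2Y receptors, the marker genes and the neighbours of P2RY11 fall outside this rule, with their values already seen. The levels of 2 marker genes are not reported here.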

Additional observations from a re-analysis of the deposited data

Results flagged for a closer look

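QPRT shRNA gave log2 fold changes of opposite sign in the lines for 3 of the 7 tested genes, with 1 library per line and shRNA, and the difference was not tested. PLCB3 was at 0.33 in BT-20 cells and -0.17 in MDA-MB-468, PLCB4 at 0.16 and -0.21, and P2RY2 at 0.0067 and -0.35. Opposite signs were also found for 54.6% of the 14321 genes tested. For P2RY2 the BT-20 value turned to -0.091 with upper quartile scaling and to -0.0010 with the GC content and length trend removed, and for PLCB4 the latter turned it to -0.13. PLCB3 kept its opposite signs under each of the 6 alternatives run on it. NT5E, of the extracellular enzymes, was at 1.32 in BT-20 cells and -1.16 in MDA-MB-468, and this difference was not tested either.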

How the results depend on the processing

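In the comparison of the lines, 5 of the 7 tested genes were called. This number was 0 without the filter on low values, where limma adjusted p values ran from 0.163 to 0.364 for those 5 genes and the cause was not tested, and 3 to 4 in fits of the line alone without 1 library (3 without BT-20 QPRT shRNA), which rest on fewer samples and assume that a lone library varies like the other line. It was 4 to 6 under the other 8 alternatives (6 with upper quartile scaling, where GNA11 was called). The share of all called genes that were higher in MDA-MB-468 was 55.7%, and 49.0% with upper quartile scaling. The count of these genes called between the shRNAs was 0 under all 9 alternatives run, with 0 to 105 calls over all genes. The number changed in MDA-MB-468 was 1 (GNAQ) at a threshold of 1.5-fold (9.17% of all genes), and 0 in BT-20 (8.98%). Counting intervals of the difference of the lines did not include 0 for 4 genes (43.4% of the 12090 genes with whole fragments), for 3 with upper quartile scaling (43.4%), where P2RY2 dropped out, and for 2 (36.5%) with the GC content and length trend removed, which shrank the difference for GNAQ and GNA11. Of 251 values of single genes under alternatives, 232 kept direction and side or moved by less than their interval, 10 lost a call, 1 gained one and 8 moved further. The additive fit compares the shRNAs within each line, so the line serves as the block, and without that term the count was also 0. No paired analysis was possible by replicate number because each group has 1 library, and the fit of the shRNAs could not be run without a library since it leaves no residual degree of freedom. At this depth 3 fragments are worth 0.0406 to 0.0431 FPKM for P2RY1 and 0.219 to 0.233 for P2RY11.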

Other observations

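The genes around P2RY11 were also higher in MDA-MB-468. Within 250 kb on either side on chromosome 19, 12 other genes were tested, and all 12 were higher in MDA-MB-468 at a limma adjusted p under 0.05, with differences of 1.13 to 2.81 and a median of 2.04, beside 2.14 for P2RY11. Over all genes tested, 30.7% were called higher. DNMT1, the maintenance DNA methyltransferase, was at 93.4 and 106 FPKM in BT-20, against 746 and 662 in MDA-MB-468, and TYK2, a kinase of cytokine receptors, was at 55.6 and 59.2 and at 353 and 382. S1PR2, a sphingosine 1-phosphate receptor that couples to G proteins, was at 1.63 and 1.89 FPKM in BT-20, against 7.80 and 11.6 in MDA-MB-468. EIF3G, on the opposite strand from P2RY11, was at 216 and 171 and at 699 and 817. After knockdown in MDA-MB-468, 11 of the 12 neighbours were above the control library, with a median log2 fold change of 0.43, beside 0.45 for P2RY11 and 0.011 over all genes tested, of which 51.5% were above. In BT-20 the same neighbours split into 6 above and 6 below, with a median of 0.043, where 56.4% of all genes were above. With the GC content and length trend removed, 9 of the 12 were above in MDA-MB-468, with a median of 0.28, beside 0.28 for P2RY11. ICAM5, an adhesion molecule of the immunoglobulin family, was at 11.1 and 25.9 FPKM in MDA-MB-468. This window was chosen after the values were seen, and neighbours share libraries, so the counts are a description.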
